A study of Mus musculus with 16 samples.

Results

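The comparison described here set every heart from mice given succinate against every heart from mice without it, across 2 genotypes: 8 samples against 8, which is all 16 of the 16 samples in the study. All mice had HFpEF, heart failure in which the ejection fraction is kept, brought on over 12 weeks by feeding a diet rich in fat and giving L-NAME, which blocks nitric oxide synthase. Floxed mice (Gpr91fl/fl) have both alleles of the succinate receptor gene flanked by recombination sites, and Cre mice (Myh6Cre Gpr91fl/fl) also carry a recombinase driven by the promoter of Myh6, a myosin gene of heart muscle cells, so other cells of the heart would keep the receptor gene. There were 4 hearts each of floxed mice without succinate, floxed mice given succinate, Cre mice without succinate and Cre mice given succinate. Every group thus shares the floxed alleles, the diet and L-NAME, and no healthy heart and no Cre heart without floxed alleles was analysed here. The dose, route and length of succinate treatment and the age and sex of the mice are not given in the sources used here, and nothing in the labels ties each sample to its own animal, so p-values measure only the spread between these samples. The effect reported is the change common to the genotypes, estimated for each gene with genotype as a blocking factor.

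Succinate is an intermediate of the tricarboxylic acid (TCA) cycle, where succinate dehydrogenase oxidises it to fumarate and feeds electrons into the respiratory chain. Outside the cell it is the ligand of GPR91, a G protein-coupled receptor whose gene is now named Sucnr1. The adult heart burns mainly fatty acids, under the control of the nuclear receptor PPAR-alpha, and also uses glucose, ketone bodies, lactate and branched-chain amino acids. Under load it raises a set of fetal and stress genes, of which the slow myosin gene Myh7 and the natriuretic peptide genes are the best known, and it raises the chaperones that fold proteins in the cytosol and in the endoplasmic reticulum (ER).

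Genes of cardiac stress and of protein folding fell with succinate, and genes for the use of fatty acids, branched-chain amino acids and pyruvate rose. In a quasi-likelihood test (edgeR, Benjamini-Hochberg adjusted p under 0.05), 2774 of 14607 tested genes passed (19.0% of those tested), 1555 higher (10.6%) and 1219 lower (8.35%) with succinate. Without adjustment 4772 genes had a p under 0.05. The changes were mostly small. The median called gene changed 1.30-fold, 716 called genes changed at least 1.5-fold, and 206 changed at least 2-fold, of which 113 were higher and 93 lower. All 2774 had the same sign in floxed and in Cre hearts, against 72.7% of all tested genes. Because a common effect is an average over the genotypes, this count is fixed in part by the test itself. The levels of 322 genes (2.20% of those tested) did not overlap between the 8 hearts with and the 8 without succinate. At the other end, the 95% interval of the effect lay within 1.5-fold in either direction for 9942 genes, among them 8536 of the 11833 that did not pass. The share of calls that were higher, 56.1%, was 43.8% when log2(FPKM + 1), a scale without the composition factors, was tested with limma.

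The single common effect was checked against a model with a separate effect for each genotype. No gene passed for a difference between the genotypes in edgeR, where the smallest adjusted p was 0.930 and 709 genes (4.85%) had an unadjusted p under 0.05. DESeq2 called 4 genes and limma voom called 0, and 788 and 1235 genes had an unadjusted p under 0.05 in them. In edgeR without floxed untreated 4 and Cre untreated 1, a choice made after seeing the data, 7 of 14714 genes passed. There 1355 had an unadjusted p under 0.05. Among the 2774 called genes, 248 (8.94%) had an unadjusted p under 0.05 for that difference, so the size of the change may not be the same in both genotypes for some genes named below. The estimate in each genotype is given for some of these genes only.

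Libraries held 27835235 to 34700996 counts, and genes encoded in mitochondrial DNA took 23.5% to 27.7% of them. The first principal component of all tested genes, with 23.9% of the variance, ran from -42.6 to -5.82 in hearts without succinate and from 3.94 to 38.0 in hearts with it. The summed level of 8 markers of ventricular muscle cells was 44667 to 54546 CPM (counts scaled to the library total) without and 53612 to 62298 CPM with succinate. Myh6 is among them and alone ran from 13292 to 18589 CPM without and from 19543 to 26988 CPM with succinate. Of the 8, 2 passed (25% beside 19.0% of all genes), and the median log2 change was 0.11. The atrial markers Myl7, Sln and Bmp10 were too low to be tested. Markers of macrophages moved with the treatment. The sum of 14 of them ran from 501 to 875 CPM without and from 283 to 649 CPM with succinate, and their mean centred log2 level from -0.046 to 0.70 and from -0.76 to 0.15. When that mean was added to the fit as a covariate, a choice made after seeing the data, 13 genes passed in place of 2774, 9 higher and 4 lower. In the 43 gene groups described below, Oxct1 of ketone use and Dnaja4 of the HSP70 system then passed and no other member did. The score differed between the arms (mean 0.278 without and -0.278 with succinate), so score and succinate overlap in that fit. Medians with it were -0.55 for cardiac stress genes, -0.37 for HSP70 and HSP90, 0.50 for PPAR-alpha targets and 0.20 for mitochondrial fatty acid oxidation. Without it they were -0.60, -0.45, 0.62 and 0.29. Those of collagens and matricellular genes changed sign, to 0.25 and 0.21. With the mean of the atrial markers other than Nppa as the covariate 1341 passed. In a bulk sample, fewer cells of a type and less RNA per cell cannot be told apart.

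**Figure D1:**
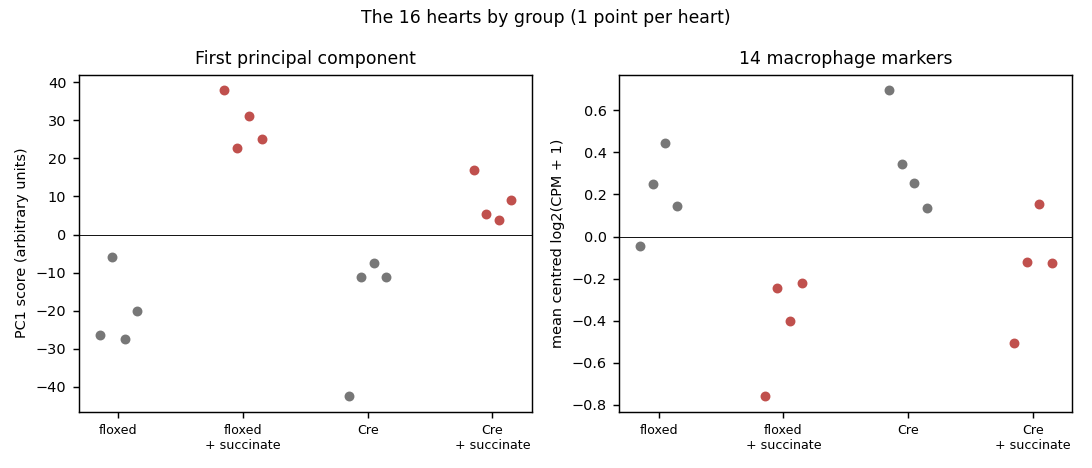
Each point is 1 heart, in 4 groups, grey without and red with succinate. Left, score on the first principal component of all tested genes (arbitrary units); right, mean centred log2(CPM + 1) of 14 macrophage markers. The first component separates all 8 hearts with succinate from all 8 without, while the macrophage marker level of the arms overlaps.

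The additive effect can in principle be carried by a single genotype, so a stricter test asked for a change in each genotype in the same direction, taking the larger of the p-values in floxed and in Cre hearts, which share no samples. It called 72 genes (0.493% of those tested), 52 higher (0.356%) and 20 lower (0.137%). Of these 72, 55 did not overlap between the 8 hearts with and the 8 without succinate, beside 2.20% of all genes. The 72 were picked by these same levels, so that count is fixed in part by the test itself. Of the 72, 18 changed at least 2-fold. Before adjustment 1370 genes met the same condition at 0.05. The number rests on single libraries: left out 1 at a time, they gave 13 to 81 genes, with 30 and 31 without replicates 1 and 3 of the untreated floxed hearts, 45 without replicate 2 or 3 of the floxed hearts with succinate, 13 and 40 without Cre untreated 1 and 2, and 14, 25, 37 and 17 without Cre succinate 1, 2, 3 and 4 in that order. In every such fit 9 genes were called, namely Art4, Dnaja4, Eeig1, Klhl33, Oxct1, Rom1, Shb, Synpo2l and Trmt5. Of the 270 named genes that passed the additive test, 8 also passed under all 33 alternative settings, the macrophage covariate included: these but for Klhl33 and Shb, and Arrdc2.

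Trmt5, which methylates guanosine next to the anticodon of transfer RNAs, had the smallest p of that test. Its lowest, median and highest levels were 20.5, 22.5 and 26.2 CPM without succinate and 36.9, 40.2 and 49.3 CPM with it. The arms were separated by a gap wider than the range of the untreated hearts, and the rise was 1.88-fold, or 0.91 ± 0.07 on the log2 scale (SE, 8 hearts per arm, adjusted p = 7.68e-07). In the genotypes apart it was 0.97 ± 0.10 in floxed and 0.85 ± 0.099 in Cre hearts. Oxct1 encodes the enzyme that activates ketone bodies for oxidation. It was held tightly in untreated hearts, at 509.9 to 545 CPM, and lay at 708 to 911 CPM in hearts given succinate, a rise of 0.65 ± 0.064 with nearly the same estimate in floxed (0.67) and Cre hearts (0.63). Art4, an ADP-ribosyltransferase that carries the Dombrock blood group, rose by 0.73 ± 0.074, from a median of 21.5 to 34.0 CPM. Ppp1r13l, which encodes an inhibitor of p53 and NF-kappaB linked to cardiomyopathy, rose from 36.4 to 53.6 CPM at the median without overlap. Rom1, best known from photoreceptor discs, rose by 0.91 ± 0.093 from 11.8 to 20.9 CPM.

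Of the genes that fell in each genotype, Synpo2l, a Z-disc protein of heart and skeletal muscle, had lowest, median and highest levels of 135, 243 and 312 CPM without succinate and 81.6, 99.2 and 119.5 CPM with it. Every heart given succinate was below every untreated heart, and the fall was 1.18 ± 0.12 on the log2 scale. Shb, an adaptor of tyrosine kinase receptors, fell by 0.93 ± 0.095, and its level with succinate spanned only 12.8 to 16.7 CPM against 20.7 to 39.9 CPM without. Eeig1, an estrogen-induced gene of osteoclasts, fell by 0.99 ± 0.11, from 27.0 to 13.2 CPM at the median. Dnaja4, a co-chaperone of HSP70, fell by 0.59 ± 0.058, from a range of 148 to 198 CPM without to one of 94.7 to 119 CPM with succinate. None of these levels overlapped between the arms. Mhrt, a noncoding RNA read from the Myh7 locus on the other strand, was among the 52 that rose (0.73 ± 0.095). With a library left out it passed in each genotype in only 1 of 16 fits. Its estimates were 1.02 ± 0.099 in floxed and 0.45 ± 0.098 in Cre hearts (unadjusted p of the difference 0.000624). The sources used here do not say whether counting used strand, so the reads of Mhrt and Myh7 cannot be told apart where the genes overlap.

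**Figure D2:**
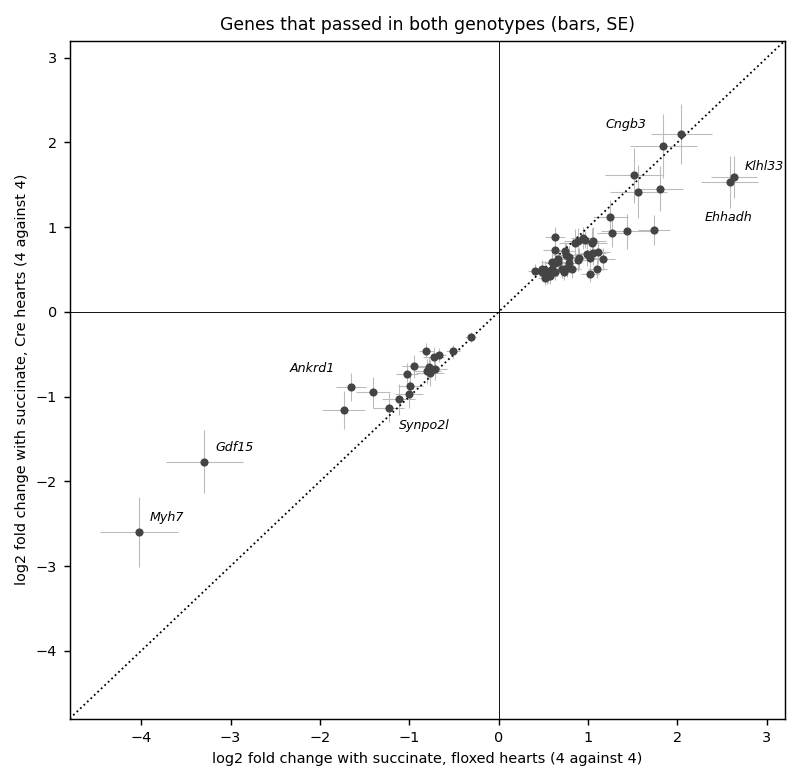
Each point is 1 of the 72 genes that passed in both genotypes; the horizontal axis is the log2 fold change with succinate in floxed hearts, the vertical axis that in Cre hearts (4 against 4 each), and bars are standard errors. All points lie in the lower left or upper right corner, as the test requires; Myh7, Gdf15, Ankrd1, Ehhadh and Klhl33 lie farther from 0 in floxed hearts, while Synpo2l and Cngb3 lie near the dotted line of equal change.

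The largest rises of all called genes with a plain symbol and a mean of at least 1 log2 CPM were in Klhl33, a muscle adaptor of a ubiquitin ligase, and in genes of fatty acid use. Klhl33 had lowest, median and highest levels of 5.68, 9.59 and 14.7 CPM without succinate and 26.3, 35.2 and 64.1 CPM with it, with no overlap, and rose 4.31-fold (2.11 ± 0.23, adjusted p = 3.36e-05). Its estimates were 2.63 ± 0.26 in floxed and 1.59 ± 0.25 in Cre hearts. Ucp3, a carrier of the inner mitochondrial membrane that fatty acids induce, rose 4.28-fold and was at 12.4, 43.9 and 122 CPM without succinate and 141, 182 and 245 CPM with it. Ehhadh, a peroxisomal enzyme of beta-oxidation, rose 4.14-fold. The others of the 15 largest rises were Cngb3, Pdk4, Pfkfb1, Chrna2, Tnfrsf19, Arrdc2, Acot1, Dixdc1, Atosa, Flvcr2, Zc3h6 and Rasd2, from 1.90 for Cngb3, a channel subunit known from cone cells, to 1.21 for Rasd2, a small GTPase of the Ras family. Of these 15 all but Acot1, Arrdc2, Pdk4 and Pfkfb1 had no overlap between the arms. Chrna2, a subunit of nicotinic acetylcholine receptors, rose from a median of 3.24 to 12.9 CPM. Flvcr2, a choline transporter of brain vessels, rose from 1.87 to 4.87 CPM. Atosa rose by 1.74 ± 0.18 in floxed and 0.96 ± 0.18 in Cre hearts. Pdk4 did not pass without floxed untreated 1 (adjusted p = 0.0527).

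Among genes with a mean of at least 1 log2 CPM, the largest falls were in the inducible HSP70 genes, in fetal and stress genes of the heart and in Nmrk2. Nmrk2, a kinase that makes the precursor of NAD+ from nicotinamide riboside and is induced in failing hearts, was at 6.47, 26.7 and 69.3 CPM without succinate and 2.44, 4.89 and 6.48 CPM with it. It fell by 2.67 ± 0.49 (adjusted p = 0.00238), and the highest heart with succinate only just met the lowest without. Sdf2l1, an ER protein that aids folding, fell by 2.02 ± 0.33. Atf3, a transcription factor of acute stress, fell by 1.71 ± 0.38 from a median of 25.7 to 7.93 CPM. The others of the 15 largest falls above that level were Hspa1b, Hspa1a, Myh7, Gdf15, Tnfrsf12a, Nppb, Spsb4, Ccr2, Hsph1, Rtn4r, Dnaja1 and P4ha1. Spsb4, an adaptor of a ubiquitin ligase, fell from a range of 5.46 to 11.2 CPM without to one of 1.29 to 4.26 CPM with succinate. Rtn4r, the receptor of the neurite inhibitor Nogo, fell by 2.27 ± 0.35 in floxed and had an estimate of -0.57 ± 0.32 in Cre hearts (unadjusted p of the difference 0.00193).

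Fetal and stress genes of heart muscle fell. Of 19 tested, 13 fell and 0 rose, beside 8.35% of all genes lower, and the median log2 change was -0.60 beside 0.0061 over all tested genes. The group median was -0.82 in floxed and -0.46 in Cre hearts. For the difference between genotypes 5 of the 19 had an unadjusted p under 0.05, none after adjustment. Myh7, the slow myosin heavy chain, had lowest, median and highest levels of 1195, 3523 and 5706 CPM without succinate and 236, 294 and 508 CPM with it. Every heart with succinate was below every heart without, and within the succinate arm the levels were close together while the untreated hearts spread widely. The fall was 3.31 ± 0.36 (adjusted p = 5.09e-05), with -4.03 ± 0.44 in floxed and -2.60 ± 0.41 in Cre hearts. Its adult counterpart Myh6 rose by 0.63 ± 0.091, from a range of 13292 to 18589 CPM without to one of 19543 to 26988 CPM with succinate, also without overlap. Ankrd1, a titin-bound sensor of stretch, fell by 1.27 ± 0.15, with -1.65 ± 0.17 in floxed and -0.89 ± 0.16 in Cre hearts. Gdf15, a circulating stress hormone, fell by 2.42 ± 0.34, from 16.5 to 2.63 CPM at the median. Its estimates were -3.29 ± 0.43 in floxed and -1.77 ± 0.37 in Cre hearts. Tnfrsf12a, the receptor of TWEAK, fell by 1.56 ± 0.21.

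The natriuretic peptides lower blood volume and dilate vessels. Nppb was at 413, 611 and 939.6 CPM without succinate and 86.1, 198 and 459 CPM with it. It fell by 1.51 ± 0.31, with -2.32 ± 0.30 in floxed and -0.71 ± 0.29 in Cre hearts (unadjusted p of the difference 0.00125). Nppa was at 171, 427 and 1757 CPM without succinate and 63.4, 267 and 932 CPM with it, its arms overlapped over most of their range, and the estimate of -1.08 ± 0.39 did not pass (adjusted p = 0.0642). The mechanical stress genes Xirp2, Xirp1 and Flnc fell by 0.80 ± 0.16, 0.52 ± 0.16 and 0.73 ± 0.15. Rcan1, a target and inhibitor of calcineurin, fell by 0.98 ± 0.17. Acta1, the skeletal actin of the fetal heart, had an estimate of -0.11 ± 0.24 and did not pass, and neither did Tnni1 (-0.43 ± 0.31), the slow skeletal troponin of the fetal heart. Of 21 sarcomere and Z-disc genes 4 rose, Tcap, Myh6, Nebl and Actn2, and 0 fell (19.0%, beside 10.6% of all genes higher), and 2 rose in 12 of the 16 fits with a library left out. Tcap, which caps titin at the Z-disc, rose by 0.76 ± 0.12, from a median of 655 to 1036 CPM without overlap. Nppa passed without Cre succinate 3, Cre succinate 4, Cre untreated 2 or Cre untreated 3 (adjusted p down to 0.0193). The calls of Xirp1, Nebl and Actn2 were lost when any of 7, 12 and 14 libraries was left out, with adjusted p up to 0.0726, 0.0769 and 0.120.

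**Figure D3:**
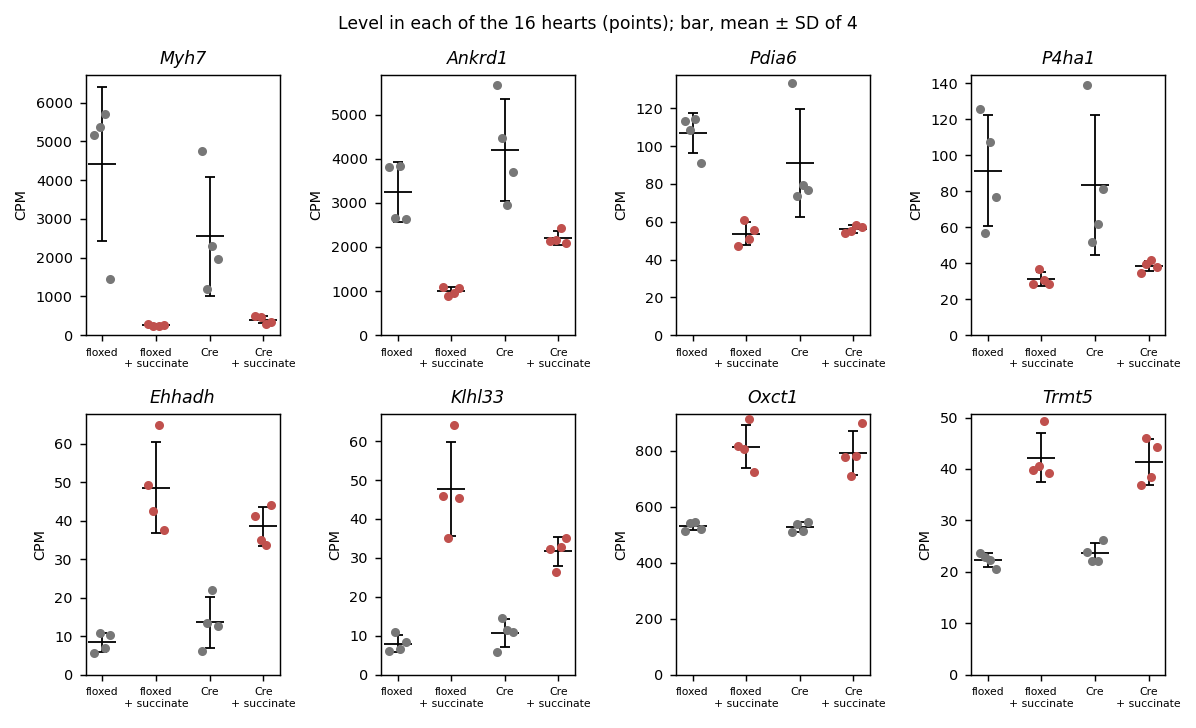
Level in CPM (vertical axes, from 0) of 8 genes in each of the 16 hearts, grey without and red with succinate; bars are the mean ± SD of 4 hearts. In all 8 genes every heart with succinate lies on the same side of every heart without: Myh7, Ankrd1, Pdia6 and P4ha1 lower, Ehhadh, Klhl33, Oxct1 and Trmt5 higher.

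Cytosolic chaperones fell. Of 27 genes of the HSP70 and HSP90 systems, 19 fell and 1 rose (74.1% called beside 19.0% of all genes). Their median was -0.45. Hspa1a, the stress-inducible HSP70, was at 2.22, 19.0 and 76.1 CPM without succinate and 0.754, 2.04 and 2.62 CPM with it. The untreated hearts differed widely among themselves, while all 8 hearts with succinate were low. The fall was 4.08 ± 0.76 for Hspa1a and 4.14 ± 0.83 for its near-identical neighbour Hspa1b, whose reads may have been split between the copies or lost in counting, so both values are uncertain. Neither passed in limma voom with sample quality weights, and on log2(FPKM + 1) the estimates were -2.26 and -2.16, both of which passed. Hsph1, an exchange factor of HSP70, fell by 1.37 ± 0.25 with no overlap (45.2 to 153 CPM without and 25.6 to 43.6 CPM with succinate). Hsp90aa1, the inducible HSP90, fell by 1.11 ± 0.15, also without overlap, while the constitutive Hsp90ab1 fell by only 0.28 ± 0.065. Hspa8, the constitutive HSP70, fell by 0.59 ± 0.089, from 1666 to 1047 CPM at the median. Dnaja1 and Dnajb1, J-domain partners of HSP70, fell by 1.33 ± 0.23 and 1.04 ± 0.24. Hsf1, the transcription factor of the heat shock response, fell by 0.24 ± 0.064.

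Among chaperones of the mitochondrial matrix, Hspa9, the mitochondrial HSP70, was the 1 member that rose (0.30 ± 0.055), and Hspd1 and Hspe1, which form the mitochondrial folding chamber, did not pass (-0.049 ± 0.066 and -0.099 ± 0.087), with 95% intervals that stayed within 1.5-fold. Of 10 small heat shock proteins and their partners, 5 fell and 0 rose (50% beside 8.35% of all genes lower). Hspb1 fell by 0.81 ± 0.13, Hspb8 by 0.45 ± 0.062 and Cryab, the alpha-B crystallin that guards desmin filaments, by 0.35 ± 0.073. None of the 3 overlapped between the arms. Hspb7 fell by 0.30 ± 0.083 and the co-chaperone Bag3 by 0.25 ± 0.079. Bag3 did not pass when any of 5 libraries was left out (adjusted p up to 0.0638).

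Genes of protein folding in the ER fell as well. Of 26 tested, 17 fell and 2 rose (73.1% called beside 19.0% of all genes), with a median of -0.34. The levels of 10 members did not overlap between the arms, beside 2.20% of all genes. The promoters of 6 members that fell are printed because they carry the ER stress element, the site through which the unfolded protein response raises these genes. The letters are the 250 bases before the start of the transcript, from RefSeq (GRCm38.p6), and capitals mark matches to the element on either strand, CCAAT and CCACG with 9 bases of any kind between them. Hspa5 is at chr2:34771840-34772089 (plus strand), Creld2 at chr15:88819396-88819645 (plus), Pdia6 at chr12:17266339-17266588 (plus), Hsp90b1 at chr10:86705445-86705694 (minus), Calr at chr8:84846932-84847181 (minus) and Dnajc3 at chr14:118937682-118937931 (plus).
Hspa5: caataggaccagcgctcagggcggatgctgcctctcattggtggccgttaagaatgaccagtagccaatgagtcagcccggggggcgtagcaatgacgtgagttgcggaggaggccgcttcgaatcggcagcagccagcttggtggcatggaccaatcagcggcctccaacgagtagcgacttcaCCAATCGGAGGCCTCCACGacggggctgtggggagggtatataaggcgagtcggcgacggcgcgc
Creld2: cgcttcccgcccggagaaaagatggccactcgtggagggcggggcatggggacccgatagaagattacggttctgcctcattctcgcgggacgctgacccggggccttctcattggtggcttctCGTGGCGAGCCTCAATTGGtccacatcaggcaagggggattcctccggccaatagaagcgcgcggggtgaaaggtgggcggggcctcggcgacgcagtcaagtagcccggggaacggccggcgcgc
Pdia6: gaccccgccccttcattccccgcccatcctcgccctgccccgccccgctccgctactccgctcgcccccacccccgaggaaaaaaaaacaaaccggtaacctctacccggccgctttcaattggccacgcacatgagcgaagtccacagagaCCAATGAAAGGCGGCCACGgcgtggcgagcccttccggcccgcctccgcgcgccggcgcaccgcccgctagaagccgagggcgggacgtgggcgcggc
Hsp90b1: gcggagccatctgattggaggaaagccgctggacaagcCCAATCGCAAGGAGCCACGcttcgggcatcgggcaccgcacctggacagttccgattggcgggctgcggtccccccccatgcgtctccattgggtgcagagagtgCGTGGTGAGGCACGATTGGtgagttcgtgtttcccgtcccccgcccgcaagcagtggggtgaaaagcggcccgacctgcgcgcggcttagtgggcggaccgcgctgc
Calr: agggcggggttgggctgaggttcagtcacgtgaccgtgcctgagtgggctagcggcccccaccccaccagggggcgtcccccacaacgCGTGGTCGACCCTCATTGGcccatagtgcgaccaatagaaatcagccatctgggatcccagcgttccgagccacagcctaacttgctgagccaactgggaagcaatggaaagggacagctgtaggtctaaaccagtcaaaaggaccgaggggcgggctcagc
Dnajc3: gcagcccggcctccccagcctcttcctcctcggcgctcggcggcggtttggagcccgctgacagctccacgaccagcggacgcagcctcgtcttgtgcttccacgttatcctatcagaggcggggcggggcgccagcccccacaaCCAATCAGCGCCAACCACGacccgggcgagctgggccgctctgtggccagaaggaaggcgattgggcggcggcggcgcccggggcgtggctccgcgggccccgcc

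Of the 23 members of this group with a promoter in the RefSeq table, 9 had such a match (39.1%), namely Calr, Canx, Creld2, Dnajc3, Ero1b, Hsp90b1, Hspa5, Pdia6 and Syvn1, against 18 of the 11529 tested genes with a promoter (0.156%). The window searched runs from 250 bases before to 50 after the start. Hsp90b1 had 2 matches, and the others printed 1 each. Of the 17 members that passed and had a promoter, 7 had a match, and so had Ero1b (-0.23 ± 0.14) and Syvn1 (-0.085 ± 0.11), which did not pass. A heat shock element, GAA, TTC and GAA or TTC, GAA and TTC with 2 bases between each, on either strand, lay in 4 of 22 promoters of the HSP70 and HSP90 group (18.2%), those of Chordc1, Hspd1, Hspe1 and Hsph1, and in 0.598% of all. Hspd1 and Hspe1 start back to back, so their windows overlap and hold the same site, and neither passed. Of the 15 members that passed and had a promoter, 2 had a match. The PPAR-alpha site in its exact form, AGGTCA repeated with 1 base between on either strand, was in 0 of 13 promoters of the PPAR-alpha targets and in 0.052% of all, and the cyclic AMP element, the palindrome TGACGTCA, in 4.21% of genes called higher, 3.87% of those called lower and 3.34% of all. No match says only that these letters are not in this window.

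Hspa5, the master chaperone of the ER, fell by 0.58 ± 0.11, from a median of 413 to 278 CPM. Pdia6, a disulfide isomerase, was at 73.7, 99.9 and 133 CPM without succinate and 47.0, 55.3 and 61.0 CPM with it and fell by 0.79 ± 0.098 (adjusted p = 5.09e-05). Calr and Hsp90b1, which fold glycoproteins and secreted proteins, fell by 0.67 ± 0.093 and 0.45 ± 0.072. Neither overlapped between the arms. Manf, a secreted ER stress protein, fell by 0.95 ± 0.16, Creld2 by 0.74 ± 0.14 and Hyou1 by 0.62 ± 0.13. Ddit3, the transcription factor CHOP, fell by 0.68 ± 0.11, and Xbp1 by 0.34 ± 0.092.

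The members that rose were Herpud1 and Ern1. Herpud1, which serves the disposal of misfolded ER proteins, was at 146, 178 and 209 CPM without succinate and 226, 273 and 339.8 CPM with it and rose by 0.69 ± 0.085 without overlap, in floxed (0.79) and in Cre hearts (0.58). Ern1, the sensor IRE1, rose by 0.39 ± 0.11. It did not pass on the FPKM scales, with the atrial marker score as a covariate or without floxed untreated 4 and Cre untreated 1. Sel1l and Syvn1, the core of the ER disposal ligase, did not pass, at -0.069 ± 0.065 and -0.085 ± 0.11. In the integrated stress response, whose factor ATF4 raises amino acid synthesis and transport, 3 of 26 genes fell (Gdf15, Ddit3 and Pycr1) and 2 rose (Shmt2 and Vldlr), a share of 19.2% beside 19.0% of all genes. Atf4 itself was at -0.28 ± 0.13 and its targets Asns, Trib3 and Psat1 at -0.19 ± 0.22, -0.28 ± 0.22 and -0.12 ± 0.10, none of which passed. Vldlr did not pass without floxed untreated 1 or floxed untreated 3 (adjusted p up to 0.0536). The calls of Pycr1 and Shmt2 were lost when any of 11 and 13 libraries was left out, with adjusted p up to 0.0965 and 0.108.

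**Figure D4:**
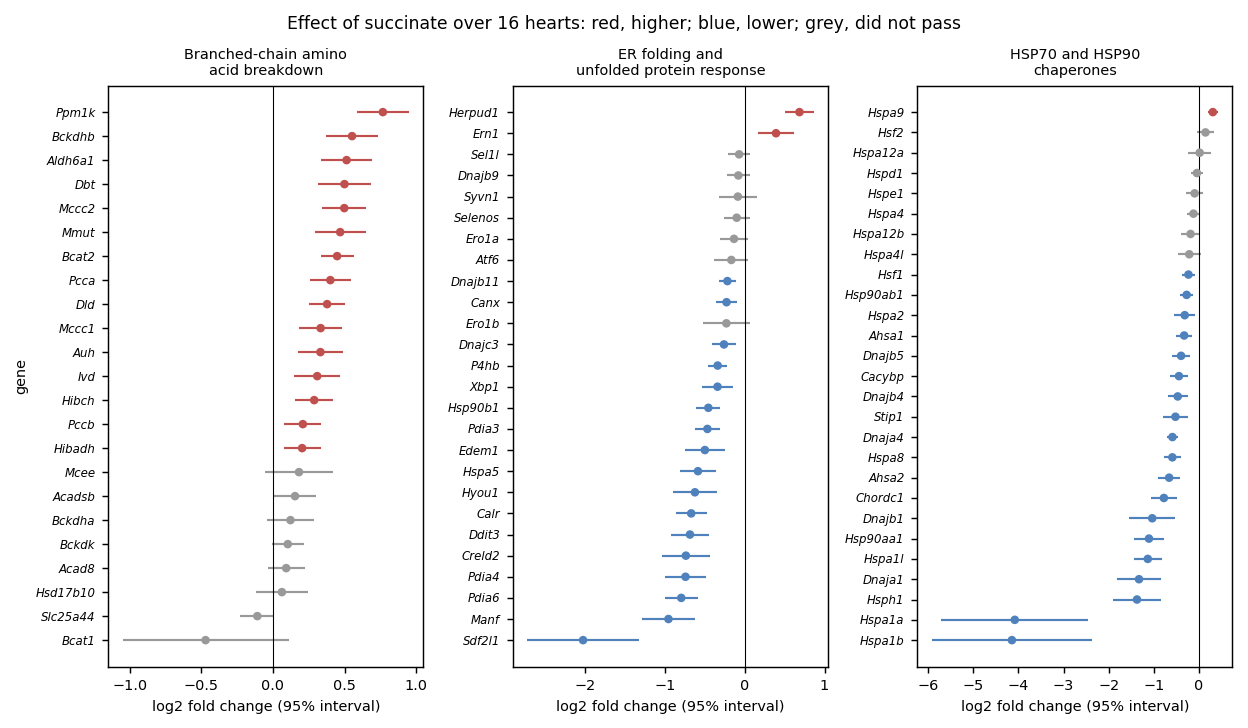
Log2 fold change with succinate over 16 hearts (point) and its 95% interval (line) for each tested member of 3 gene groups: red, higher; blue, lower; grey, did not pass. Breakdown of branched-chain amino acids has 15 members higher and 0 lower, ER folding 2 higher and 17 lower, HSP70 and HSP90 chaperones 1 higher and 19 lower; the horizontal scales differ between panels.

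Genes of fatty acid oxidation rose. In mitochondria 16 of 25 rose and 0 fell, beside 10.6% of all genes higher, all 25 estimates were above 0, and the median was 0.29. The carnitine system that carries fatty acids into mitochondria was represented by Cpt1a (0.57 ± 0.11), Cpt2 (0.51 ± 0.079), the carrier Slc25a20 (0.42 ± 0.086) and the carnitine transporter Slc22a5 (0.59 ± 0.12), all of which rose. Cpt1b, the muscle form of the gatekeeper, had an estimate of 0.28 ± 0.19 and did not pass. Cpt2 was at 156, 182 and 222 CPM without succinate and 235, 259 and 282 CPM with it, without overlap. Acad11, an acyl-CoA dehydrogenase, rose by 0.53 ± 0.075 without overlap, and Etfdh, which passes the electrons of these dehydrogenases to ubiquinone, by 0.55 ± 0.089. The spiral enzymes Hadha, Echs1, Acadvl and Hadh rose by 0.29 to 0.42 on the log2 scale. Hadha did not pass without Cre untreated 1, floxed succinate 1, floxed untreated 1 or floxed untreated 3 (adjusted p up to 0.0597).

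In peroxisomes, which shorten very long and branched fatty acids, 12 of 19 rose and 0 fell (63.2% beside 10.6% of all genes higher). Ehhadh was at 5.65, 10.4 and 22.1 CPM without succinate and 33.6, 41.9 and 64.8 CPM with it, with no overlap, and rose by 2.58 ± 0.32 in floxed and 1.54 ± 0.31 in Cre hearts. The transporters Abcd3 and Abcd2 rose by 0.64 ± 0.083 and 0.73 ± 0.13, and the bifunctional enzyme Hsd17b4 by 0.43 ± 0.061. Without replicate 3 of the untreated floxed, or replicate 1 or 4 of the untreated Cre hearts, 7 of the 19 passed. Of 16 targets of PPAR-alpha, some of them shared with the groups above, 11 rose and 0 fell. This is 68.75% beside 10.6% of all genes higher, with a median of 0.62. The gene of the receptor itself, Ppara, had an estimate of -0.32 ± 0.17 and did not pass. Acot2, a mitochondrial thioesterase, rose by 1.06 ± 0.24, and the related cytosolic Acot1, with a near-identical sequence that could share reads, 2.84-fold. Angptl4, an inhibitor of lipoprotein lipase, had an estimate of 1.67 ± 0.59 and did not pass. Angptl4 passed without Cre untreated 3 (adjusted p = 0.00586).

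Uptake and storage followed in part. Of 14 genes of fatty acid uptake and activation 7 rose and 1 fell (57.1% called beside 19.0% of all genes). Slc27a1, a fatty acid transporter, rose by 0.71 ± 0.12, Acsl1, the main acyl-CoA synthetase of the heart, by 0.60 ± 0.11, and Cd36 by 0.31 ± 0.085, while Acsl5 fell by 0.41 ± 0.086. With replicate 3 of the untreated floxed hearts left out 4 of the 14 passed, and with replicate 2 of the floxed hearts with succinate or replicate 1 of the untreated Cre hearts left out 5 did. Of 23 genes of lipid droplets and triglyceride, 11 rose and 2 fell (56.5% called). The droplet coats Plin5, Plin3, Plin2 and Plin4 rose by 0.73 ± 0.12, 0.55 ± 0.07, 0.61 ± 0.12 and 0.48 ± 0.094. The lipases Pnpla2 and Lipe rose by 0.54 ± 0.095 and 0.77 ± 0.14, and G0s2, the inhibitor of Pnpla2, fell by 0.79 ± 0.16. Gpam, which begins triglyceride synthesis, rose by 0.75 ± 0.14. Plin3 was at 121, 137 and 151 CPM without succinate and 179, 196 and 213 CPM with it, without overlap. It was among the 72 genes that passed in each genotype, with a library left out in 10 of 16 fits.

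Pyruvate entry into the TCA cycle showed rises on both sides of its switch. Of 14 genes of the pyruvate dehydrogenase complex and its regulators 10 rose and 0 fell. This is 71.4% beside 10.6% of all genes higher, with a median of 0.31. The subunits Pdha1, Pdhb, Dlat, Dld and Pdhx rose by 0.25 to 0.38. Pdhb was at 410.3, 446 and 478 CPM without succinate and 529.5, 559.6 and 598 CPM with it, without overlap. The activating phosphatases Pdp1 and Pdp2 rose by 0.41 ± 0.084 and 0.90 ± 0.17. Pdk4, the kinase that switches the complex off when fat is used, rose by 1.76 ± 0.49 (adjusted p = 0.0236), from a range of 215 to 3876 CPM without to one of 2878 to 5185 CPM with succinate. Its arms overlapped in 1 untreated Cre heart, whose level was within the range of the hearts with succinate. Pdk4 did not pass without floxed untreated 1 (adjusted p = 0.0527).

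Of 23 genes that break down branched-chain amino acids 15 rose and 0 fell, beside 10.6% of all genes higher, with a median of 0.31. Bcat2, the mitochondrial transaminase of the first step, was at 61.4, 71.4 and 75.4 CPM without succinate and 83.5, 92.4 and 100.5 CPM with it, without overlap, and rose by 0.45 ± 0.055, with 0.41 in floxed and 0.49 in Cre hearts. The second step is the branched-chain ketoacid dehydrogenase, whose subunits Bckdhb and Dbt rose by 0.55 ± 0.087 and 0.50 ± 0.087 while Bckdha did not pass (0.12 ± 0.077). Ppm1k, the phosphatase that activates this enzyme, rose by 0.77 ± 0.088, from a median of 38.6 to 63.8 CPM. Bckdk, the kinase that inactivates it, did not pass, and its interval ran from -0.0069 to 0.21. Below it, Mccc2 of leucine breakdown rose by 0.50 ± 0.074, and Aldh6a1, Mmut and Pcca of valine and propionate breakdown rose by 0.51, 0.47 and 0.40. Bcat2, Mccc2 and Ppm1k also passed in each genotype. With a library left out they did so in 7, 1 and 12 of 16 fits.

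Of 23 TCA cycle genes 15 rose and 0 fell (65.2% beside 10.6% of all genes higher), with a median of 0.25. Idh1, the cytosolic isocitrate dehydrogenase that makes NADPH, had the largest rise, 0.66 ± 0.08, at 35.1, 40.8 and 48.4 CPM without succinate and 56.7, 62.7 and 73.3 CPM with it. Its levels did not overlap and it passed in each genotype, with a library left out in 7 of 16 fits. Idh3a, the catalytic subunit of the NAD+-dependent mitochondrial enzyme, rose by 0.43 ± 0.062 without overlap, and Dlst and Dld of the oxoglutarate dehydrogenase complex by 0.38 ± 0.061 and 0.38 ± 0.061. Idh2, the mitochondrial NADP+-dependent enzyme, did not pass (-0.055 ± 0.075). Of the enzymes around succinate itself, Suclg1 and Sucla2, which form it, rose by 0.28 ± 0.073 and 0.27 ± 0.069. Among the subunits of succinate dehydrogenase, Sdha, Sdhc and Sdhd rose by 0.26 ± 0.074, 0.19 ± 0.062 and 0.20 ± 0.065, while Sdhb did not pass at 0.20 ± 0.094. The next enzyme, Fh1, rose by 0.29 ± 0.071. Sdha did not pass without Cre untreated 1, floxed succinate 3 or floxed untreated 1 (adjusted p up to 0.0537). Sdhb passed without floxed untreated 4 (adjusted p = 0.0497). The calls of Sdhc and Sdhd were lost when any of 12 and 13 libraries was left out, with adjusted p up to 0.107 and 0.112.

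Of 14 genes of the malate-aspartate shuttle and of anaplerosis 9 rose and 0 fell (64.3% beside 10.6% of all genes higher). Got1, the cytosolic transaminase of the shuttle, rose by 0.48 ± 0.061. It passed in each genotype, with a library left out in 8 of 16 fits. The carriers Slc25a13, Slc25a12 and Slc25a11 rose by 0.41, 0.31 and 0.29. Of 7 genes of ketone metabolism Oxct1 and Acat1, which use ketone bodies, rose (0.65 ± 0.064 and 0.26 ± 0.069) and Aacs, which routes them to lipid synthesis, fell by 0.61 ± 0.13. This is 42.9% called, beside 19.0% of all genes. Without replicate 3 of the untreated Cre hearts 4 rose. Bdh1 did not pass at 0.45 ± 0.18. Bdh1 passed without floxed untreated 1 (adjusted p = 0.0312).

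Most genes of the respiratory chain did not pass. Of 73 nuclear genes of the complexes, 11 rose and 0 fell (15.1% beside 10.6% of all genes higher), and 71 of the 73 estimates were above 0. The median was 0.10, and all 73 intervals lay within 1.5-fold in either direction. Those that rose were Cycs (0.37 ± 0.091), Ndufs1, Uqcrc2, Uqcrc1, Uqcrfs1, Cyc1, Atp5a1, Ndufs7, Ndufs3, Atp5pb and Ndufa10. Uqcrc2 of complex III rose by 0.36 ± 0.075 and Ndufa10 of complex I by 0.21 ± 0.07. This count ran from 6 to 18 as each library was left out: 6 or 7 without replicate 1, 2 or 3 of the untreated floxed, replicate 2, 3 or 4 of the floxed with succinate, replicate 1 of the untreated Cre or replicate 2 of the Cre with succinate, and 18 without replicate 4 of the untreated floxed hearts. Of 13 genes encoded in mitochondrial DNA only ND6 rose (0.39 ± 0.12). This is 7.69% beside 10.6% of all genes higher, and the median was -0.036. Cyc1 did not pass without Cre untreated 1, floxed untreated 1 or floxed untreated 3 (adjusted p up to 0.0600). ND6 did not pass without Cre untreated 1, floxed untreated 2, floxed untreated 3 or floxed untreated 4 (adjusted p up to 0.0589). The calls of Ndufs7, Ndufs3, Atp5pb and Ndufa10 were lost when any of 8, 11, 11 and 11 libraries was left out, with adjusted p up to 0.0779, 0.101, 0.117 and 0.0899.

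Glucose genes moved in both directions. Of 24 genes of uptake and glycolysis 7 rose and 4 fell (45.8% called beside 19.0% of all genes), with a median of 0.065. Eno3, the muscle enolase, was at 375, 614 and 860.2 CPM without succinate and 904, 1039.9 and 1117 CPM with it, without overlap, and rose by 0.82 ± 0.15, Pfkm rose by 0.28 ± 0.075, and Slc2a4, the insulin-regulated transporter GLUT4, by 0.34 ± 0.071. Pfkfb1, the liver and muscle form of the enzyme that sets fructose 2,6-bisphosphate, rose by 1.64 ± 0.18. Pgam1, the general phosphoglycerate mutase, fell by 0.80 ± 0.12 without overlap, while its muscle form Pgam2 did not pass (0.065 ± 0.083). Pfkp, the platelet form of phosphofructokinase, fell by 0.32 ± 0.088. Hk2, the insulin-regulated hexokinase, fell by 0.46 ± 0.15 and the lactate transporter Slc16a1 by 0.43 ± 0.098. Of 18 glycogen genes 7 rose and 2 fell (50% called). Gys1, the muscle glycogen synthase, rose by 0.44 ± 0.089, and Pygm, which breaks glycogen down, by 0.28 ± 0.075. The glycogen-targeting subunits Ppp1r3c and Ppp1r3b fell by 1.08 ± 0.15 and 0.62 ± 0.17. Ppp1r3c was at 94.5, 141 and 205 CPM without succinate and 50.2, 70.7 and 82.7 CPM with it, without overlap. Hk2 did not pass when any of 7 libraries was left out (adjusted p up to 0.0752).

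NAD metabolism is named in the title of the study. Of 17 genes of NAD and NADP synthesis, Naprt and Nadk2 rose and Nmrk2 and Nadk fell (23.5% called beside 19.0% of all genes). Without replicate 3 of the untreated Cre hearts 4 rose and 3 fell. Naprt, which uses nicotinic acid, was below 12.4 CPM in every untreated heart and at up to 16.8 CPM with succinate, without overlap, and rose by 0.46 ± 0.081. Nadk2, the mitochondrial NAD kinase, rose by 0.46 ± 0.10, and its cytosolic counterpart Nadk fell by 0.18 ± 0.058. Nampt, the rate-limiting enzyme of the salvage path, had an estimate of 0.15 ± 0.08, with a 95% interval from -0.02 to 0.31, and did not pass. Nmnat1 and Nmnat3, which finish NAD+, did not pass at -0.11 ± 0.061 and 0.13 ± 0.069, and Nnt, which passes hydride from NADH to NADP+, did not at 0.20 ± 0.084. Of 15 enzymes that consume NAD+ the 3 mitochondrial sirtuins rose and 0 fell (20% called beside 19.0% of all genes). Sirt3 rose by 0.29 ± 0.07, Sirt5 by 0.28 ± 0.065 and Sirt4 by 0.24 ± 0.08. The 95% interval of Sirt1 ran from -0.017 to 0.32, that of Cd38, a glycohydrolase of NAD+, from -0.22 to 0.23 and that of Parp1 from -0.0077 to 0.28. Nnt passed without Cre untreated 3 (adjusted p = 0.0371). The calls of Nadk and Sirt4 were lost when any of 7 and 11 libraries was left out, with adjusted p up to 0.0840 and 0.0986.

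A mixed list of genes that rise in fasting, under FoxO factors or under glucocorticoids was higher in part. Of 27 tested 14 rose and 0 fell (51.9% beside 10.6% of all genes higher), with a median of 0.39. Trim63 and Fbxo32, the muscle ubiquitin ligases MuRF1 and atrogin-1, rose by 0.59 ± 0.083 and 0.76 ± 0.14. Trim63 was at 144, 172 and 202 CPM without succinate and 225, 238 and 351 CPM with it, without overlap, with 0.60 in floxed and 0.59 in Cre hearts. Cited2, a transcriptional coregulator, rose by 1.13 ± 0.16, with 1.62 ± 0.16 in floxed and 0.65 ± 0.16 in Cre hearts (unadjusted p of the difference 0.000514). Sesn1, an inhibitor of mTORC1, rose by 0.48 ± 0.079, and Txnip by 0.53 ± 0.16. The factors Foxo3, Foxo1 and Foxo4 rose by 0.39, 0.27 and 0.20. The well-known glucocorticoid targets Fkbp5, Tsc22d3 and Per1 did not pass (0.40 ± 0.27, 0.11 ± 0.20 and 0.43 ± 0.15). Of 22 muscle Kelch and ubiquitin ligase genes, which include Trim63 and Fbxo32, 11 rose and 2 fell (59.1% called beside 19.0% of all genes). Klhl38 rose by 1.15 ± 0.18 and Klhl31 by 0.40 ± 0.076, while Klhl34 fell by 1.02 ± 0.19 and Klhl40 by 0.33 ± 0.11. Foxo1 did not pass without Cre untreated 1, floxed succinate 3 or floxed untreated 3 (adjusted p up to 0.0557). Per1 passed without Cre untreated 4 or floxed untreated 1 (adjusted p down to 0.0132). The calls of Txnip, Foxo4 and Klhl40 were lost when any of 9, 11 and 5 libraries was left out, with adjusted p up to 0.0814, 0.109 and 0.0608.

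Among genes of excitation, 7 of 18 potassium channel genes rose and 0 fell (38.9% beside 10.6% of all genes higher). Their median was 0.22. Kcnd2, a pore subunit of the fast transient outward current, rose by 0.68 ± 0.16, Kcnh2 and Kcnq1, which carry the rapid and slow delayed rectifier currents, by 0.56 ± 0.13 and 0.38 ± 0.091, and Kcnip2, the partner of Kcnd2, by 0.29 ± 0.079. Abcc9, a subunit of ATP-sensitive channels that pericytes also express, rose by 0.44 ± 0.097. Of 24 calcium cycling genes 5 rose and 3 fell (33.3% called beside 19.0% of all genes). Ryr2, the calcium release channel, rose by 0.60 ± 0.14 and Atp2a2, the calcium pump SERCA2, by 0.41 ± 0.089, while Pln, its inhibitor, did not pass (0.07 ± 0.068). Jph2, which ties the release units to the membrane, fell by 0.33 ± 0.10. Of 23 genes of adrenergic and cyclic AMP signalling 3 rose and 4 fell (30.4% called). The alpha-1 receptors Adra1b and Adra1a rose by 0.93 ± 0.12 and 0.82 ± 0.14. The main cardiac beta receptor, Adrb1, did not pass (-0.031 ± 0.17). The group of nitric oxide and cyclic GMP signalling includes the nitric oxide synthases, which L-NAME blocks. Of its 16 genes Npr2 and Gucy1a1 rose (0.21 and 0.29) and Nos3 and Ass1 fell (by 0.31 and 0.59). This is 12.5% each way beside 10.6% of all genes higher and 8.35% lower. Without replicate 3 of the floxed hearts with succinate 1 rose and 1 fell, and 0 rose on log2(FPKM + 1). The 95% interval of Nos2, the inducible synthase, ran from -0.45 to 0.19. Jph2 did not pass without floxed succinate 1 or floxed succinate 4 (adjusted p up to 0.0544). The calls of Npr2 and Nos3 were lost when any of 5 and 8 libraries was left out, with adjusted p up to 0.0695 and 0.0654.

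**Figure D5:**
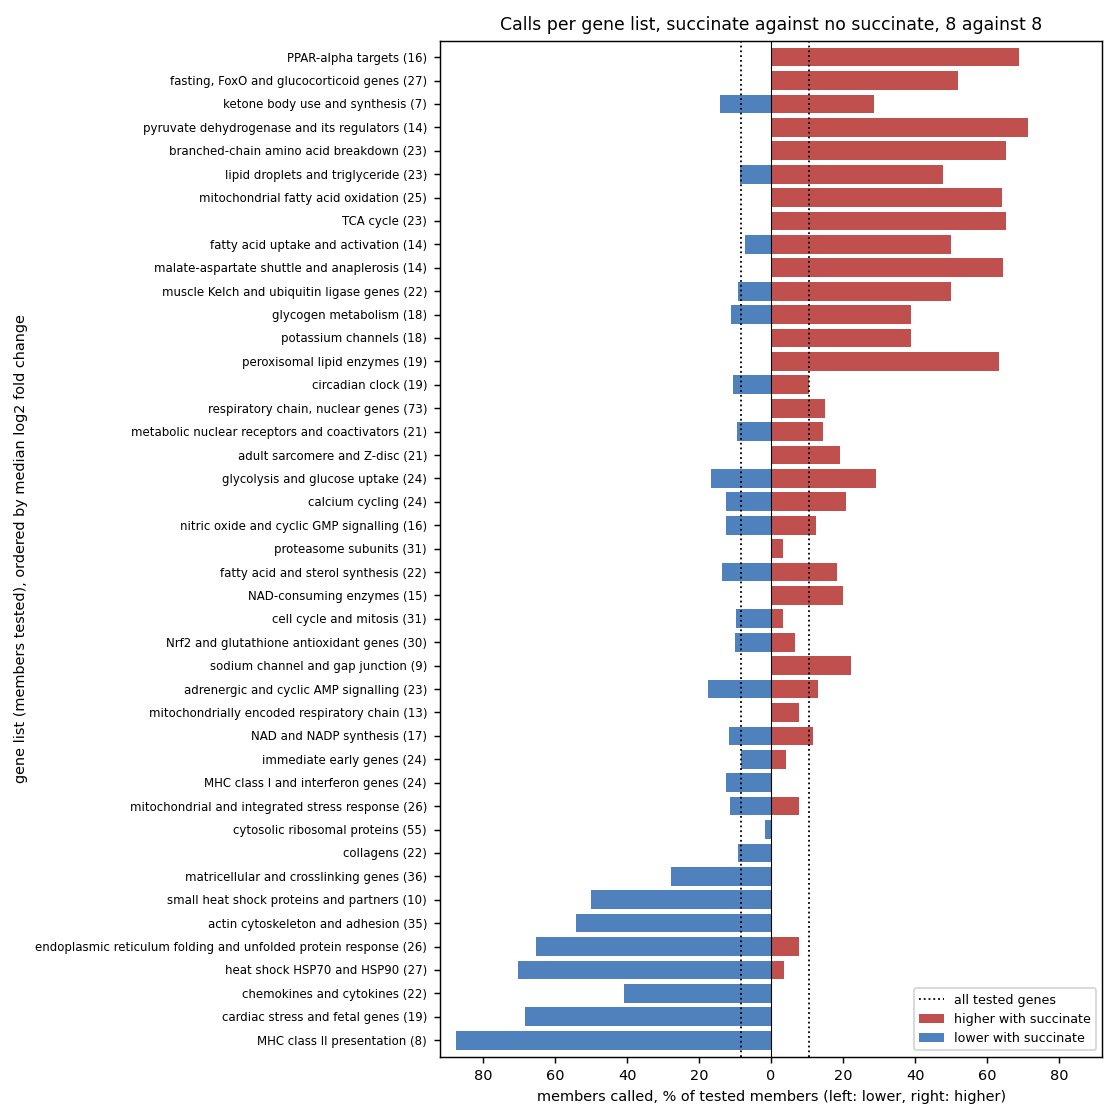
Bars give, for each of 43 gene groups, the percentage of tested members (number in brackets) called higher (red, right) or lower (blue, left) with succinate, ordered by the median log2 fold change; dotted lines are the percentages over all tested genes, 10.6% and 8.35%. PPAR-alpha targets are at the top with 11 of 16 higher and presentation by MHC class II at the bottom with 7 of 8 lower; groups share some genes.

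In the extracellular matrix 4 genes that process collagen fell, while 20 of 22 collagens did not pass. P4ha1, which hydroxylates proline in new collagen, was at 51.7, 78.8 and 139 CPM without succinate and 28.4, 35.6 and 41.5 CPM with it and fell by 1.29 ± 0.18 without overlap. Serpinh1, the collagen chaperone of the ER, fell by 1.18 ± 0.14. It passed in each genotype, with a library left out in 10 of 16 fits. P4ha2 fell by 0.70 ± 0.098 and Plod1, which hydroxylates lysine, by 0.52 ± 0.081. The matricellular genes Spp1, Tnc and Comp fell by 2.79 ± 0.87, 1.78 ± 0.48 and 0.94 ± 0.31. Without Cre untreated 1, whose Spp1 level of 9.02 CPM lay far above the next highest untreated heart at 1.75 CPM, the Spp1 estimate was -1.41. None of the 3 passed in limma voom with sample quality weights. In all 10 of 36 genes of this group fell and 0 rose (27.8% beside 8.35% of all genes lower). Without replicate 1 of the untreated Cre hearts 6 fell. Of 22 collagens Col15a1 and Col6a3 fell, by 0.57 ± 0.15 and 0.62 ± 0.17. This is 9.09% beside 8.35% of all genes lower. Neither passed with the replicate number as a block within genotype or with the atrial marker score as a covariate. The fibrillar Col1a1 and Col3a1 did not pass at -0.23 ± 0.18 and -0.29 ± 0.21. Without replicate 3 of the Cre hearts with succinate 4 collagens fell. Of 12 fibroblast markers 0 passed, with a median of -0.076, and 0 passed in every fit with a library left out. With the macrophage score as a covariate the medians of the matricellular and collagen groups were 0.21 and 0.25. Tnc did not pass without Cre untreated 1 (adjusted p = 0.0583). The calls of Spp1 and Comp were lost when any of 9 and 12 libraries was left out, with adjusted p up to 0.252 and 0.0788.

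Of 35 genes of the actin cytoskeleton and adhesion 19 fell and 0 rose. This is 54.3% beside 8.35% of all genes lower, with a median of -0.32. Tubb6 and Tubb5, which encode tubulins, fell by 0.80 ± 0.14 and 0.51 ± 0.092, each without overlap. Flna and Actb fell by 0.54 ± 0.12 and 0.38 ± 0.10, and Msn and Actn4, which link actin to membranes and adhesions, by 0.26 ± 0.061 and 0.33 ± 0.072. The smooth muscle genes Acta2, Tagln and Cnn1 did not pass (-0.61 ± 0.24, -0.59 ± 0.27 and -0.98 ± 0.46). With the untreated hearts floxed replicate 4 and Cre replicate 1 both left out, a choice made after seeing the data, 9 of the 35 passed. With the macrophage score as a covariate 0 passed and the median was -0.085. Acta2 passed without Cre untreated 3 (adjusted p = 0.0408).

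Genes of antigen presentation by MHC class II fell. Of 8 tested 7 fell and 0 rose (87.5% beside 8.35% of all genes lower), with a median of -0.80. Cd74, the invariant chain, was at 147, 199 and 233 CPM without succinate and 73.6, 109 and 145 CPM with it, without overlap, and fell by 0.81 ± 0.14. Ciita, the factor that switches these genes on, fell by 1.13 ± 0.22, and H2-Ab1 and H2-DMa by 0.83 ± 0.17 and 0.93 ± 0.17. The estimates for Cd74 were -0.50 ± 0.18 in floxed and -1.13 ± 0.18 in Cre hearts, and 6 of the 8 genes had an unadjusted p under 0.05 for the difference between genotypes, none after adjustment. Of 22 chemokines and cytokines 9 fell and 0 rose (40.9% beside 8.35% of all genes lower). Ccl6 fell by 0.91 ± 0.17 and Ccl9 from a median of 15.2 to 8.94 CPM, each without overlap, and Ccl2 and Ccl7, which draw monocytes, by 1.07 ± 0.31 and 1.24 ± 0.27. S100a9 and S100a8, which neutrophils and monocytes hold, fell by 1.16 ± 0.22 and 1.22 ± 0.32, from mean levels of 2.00 and 1.09 CPM without succinate. Of 24 MHC class I and interferon genes 3 fell, Irf8, Bst2 and Irf1 (12.5% beside 8.35% of all genes). Irf8, a factor of myeloid cells, passed in each genotype, but with a library left out in only 2 of 16 fits. Ccl2 did not pass without Cre untreated 1 or floxed succinate 1 (adjusted p up to 0.0654). Irf1 did not pass without Cre untreated 2, floxed succinate 1, floxed succinate 3 or floxed untreated 4 (adjusted p up to 0.0544).

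Of the 14 macrophage markers 9 fell and 0 rose (64.3% beside 8.35% of all genes lower), with a median of -0.54. Ccr2, the receptor of recruited monocytes, was at 2.15, 5.17 and 17.3 CPM without succinate and 1.57, 2.15 and 3.09 CPM with it and fell by 1.42 ± 0.35. Timd4 and Lyve1, markers of resident macrophages, fell by 0.98 ± 0.21 and 0.68 ± 0.17, Adgre1 by 0.68 ± 0.14 and the complement genes C1qa, C1qb and C1qc by 0.56, 0.52 and 0.52. Cd68, Lyz2, Mrc1, Cd163 and Cx3cr1 did not pass. None of the 14 was at 0 in any group. Of 5 tested atrial markers (2 of which passed, lower, without replicate 3 of the Cre hearts with succinate), 7 T and NK cell markers, 5 B cell markers, 6 erythroid and 5 Schwann cell markers 0 passed in each list, although Lck and Il7r of T cells, Slc4a1 of erythroid cells and Sox10 of Schwann cells did in single fits with a library left out. Of 12 endothelial markers Aqp1 and Flt1 fell and Fabp4 rose (-0.38, -0.28 and 0.64), and of 11 pericyte and smooth muscle markers Pdgfrb and Abcc9 rose (0.26 and 0.44). These are 25% and 18.2% called, beside 19.0% of all genes. Lyz2 passed without floxed succinate 4 (adjusted p = 0.0372). Mrc1 passed without Cre succinate 3 or Cre untreated 3 (adjusted p down to 0.0182). Cx3cr1 passed without Cre untreated 4 (adjusted p = 0.0289). Lck passed without floxed untreated 4 (adjusted p = 0.0470). Il7r passed without Cre untreated 2 or Cre untreated 4 (adjusted p down to 0.0211). Slc4a1 passed without Cre untreated 2 (adjusted p = 0.0106). Sox10 passed without Cre untreated 2 (adjusted p = 0.0416). Fabp4 did not pass when any of 8 libraries was left out (adjusted p up to 0.0706).

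Of 31 proteasome subunits only Psmc2 rose, by 0.18 ± 0.052, and 0 fell. Of 55 cytosolic ribosomal protein genes only Rpl3 fell, by 0.54 ± 0.12, yet all 55 estimates were below 0, with a median of -0.17. Without replicate 4 of the floxed hearts with succinate 25 of the 55 passed, and without replicate 2 of the Cre hearts with succinate 8 did, all lower, and 2 or 3 did without replicate 1 of the untreated floxed or replicate 3 or 4 of the untreated Cre hearts. With the macrophage score as a covariate their median was 0.058. Of 30 genes of the antioxidant response 2 rose (Sod2 and Cat, by 0.31 and 0.32) and 3 fell (Srxn1, Gpx3 and G6pdx), and Nqo1 and Gclc, standard targets of the factor NRF2, did not pass (-0.12 ± 0.078 and 0.084 ± 0.086). Of 24 immediate early genes Zfp36 rose and Atf3 and Ier3 fell, and 4 and 6 fell without replicate 3 or replicate 2 of the untreated Cre hearts. Of 19 clock genes 2 rose (Per3 and Rora) and 2 fell (Bhlhe40 and Cry1), and Bmal1 and Clock did not pass (-0.094 ± 0.13 and 0.046 ± 0.076). With either replicate 2 or replicate 4 of the untreated Cre hearts left out, 4 clock genes rose and 3 fell. Of 31 cell cycle genes 1 rose (Cdk2) and 3 fell (Mcm6, Mcm3 and Ccnd1), and 1 fell when any of 6 libraries was left out. Of 22 genes of fatty acid and sterol synthesis 4 rose, among them Fdft1 of cholesterol synthesis (0.80 ± 0.12) and Acacb and Mlycd, which make and remove the malonyl-CoA that restrains Cpt1 (0.57 ± 0.12 and 0.71 ± 0.16), and 3 fell, Elovl5, Scd2 and Scd1. Of 21 metabolic nuclear receptors and coactivators Thrb, Nrip1 and Thra rose (0.58, 0.45 and 0.30) and Pprc1 and Perm1 fell. Ppargc1a, the coactivator PGC-1alpha, did not pass, and its 95% interval ran from -0.24 to 0.46. Called shares were 3.23% of proteasome, 1.82% of ribosomal, 16.7% of antioxidant and 12.5% of immediate early genes, beside 19.0% of all genes. They were 21.1% of clock, 12.9% of cell cycle, 31.8% of fatty acid and sterol synthesis and 23.8% of receptor and coactivator genes. Zfp36 did not pass without floxed succinate 4, floxed untreated 3 or floxed untreated 4 (adjusted p up to 0.0606). The calls of Psmc2, Rora, Mcm6, Ccnd1, Scd1 and Pprc1 were lost when any of 5, 5, 7, 12, 10 and 6 libraries was left out, with adjusted p up to 0.0726, 0.0756, 0.0588, 0.0935, 0.10 and 0.0817.

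The succinate receptor gene, Sucnr1, was too low to enter the tested set. It had 38 counts in all hearts without and 45 in all hearts with succinate, or 0.151 ± 0.217 and 0.177 ± 0.160 CPM (SD, n = 8). The highest library held 21 counts, and a count of 3, taken as the floor, corresponds to 0.0865 to 0.108 CPM. With succinate labels exchanged within genotype, a two-sided exact permutation test of the difference, 0.0259 CPM, gave p = 0.799, where the smallest possible p is 0.000408. Among the 62 listed genes below the filter 3 had an exact p under 0.05 and 0 passed after Benjamini-Hochberg adjustment. Whether succinate changed its receptor gene was thus not detectable at this depth.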

How the data were processed

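Bulk RNA-seq of 16 mouse hearts (TRIzol RNA, VAHTS Universal V6 libraries, per the labels' protocols) was analysed from the table of raw counts per gene that the authors deposited. The submitters' processing notes name fastp, HISAT2, HTSeq, DESeq2, R 3.2.0 and build GRCm39, while strand use and annotation are not given in the sources used here. FPKM values deposited by the authors served as an alternative scale.

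Genes were kept by edgeR's filterByExpr (minimum count 10), scaled by TMM and tested with robust quasi-likelihood fits (edgeR 4.0.16, R 4.3.3) of genotype plus succinate on all 16 samples, with Benjamini-Hochberg adjustment at 0.05. The SE is the log2 fold change divided by the root of its F statistic, and intervals are 95%. A change in each genotype was tested by the larger of the p-values of the genotypes, adjusted likewise, and a difference between genotypes by the interaction. Levels in CPM are counts scaled to the library total and are not comparable between genes. DESeq2 1.42.0 and limma 3.58.1 were alternatives, with other scalings, filters, covariates and left-out libraries. In simulated counts with 50 changed genes per fold, the additive test recovered 28% of 1.25-fold, 62% of 1.5-fold, 78% of 2-fold and 98% of 3-fold changes. It called 4 of 14407 unchanged genes. Far fewer genes changed there than the 2774 that passed in the data, so the adjusted cutoff was stricter, and genotype had no effect. These rates need not hold for the data. The test in each genotype recovered 0, 19, 36 and 42 of 50 at these folds. A gene that did not pass may thus have changed by a small fold. Depth was 27835235 to 34700996 counts, and the median SE of a log2 fold change was 0.102. Same-numbered samples did not vary together (correlations -0.112 to 0.177 over 8 pairs).

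The 59 gene lists and the members named were chosen with earlier results of these data known. Named genes were Sucnr1, the 15 largest called changes in each direction (mean log2 CPM from 1 up, symbols of clone or model genes left out), up to 4 called members per list by p, up to 2 where none was called, and the 10 smallest p in both genotypes. Other list members named, and Mhrt, were chosen after their values were seen. A few genes that the rule names are not reported here. Promoters came from a RefSeq table of GRCm38.p6, matched to 11529 of the 14607 tested genes by Entrez ID, and chromosome 18 was not used.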

Additional observations from a re-analysis of the deposited data

Results flagged for a closer look

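In 52 of 674 arms of 8 samples (7.72%) the highest or lowest sample stood apart from the other 7, its gap to the nearest, divided by the range of the arm, being above Dixon's 95% critical value. Chance flags about 1 in 20 such groups, and genes that vary together are flagged together. Values are CPM, and the cause was not tested.

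The Cre heart 1 without succinate had the highest level of its arm in Cd68, Col1a1, Col3a1, Col6a3, Ero1b, Gpx3, Msn, Nppa, Pfkp, Sirt4, Spp1 and Tnc, at 25.8, 233, 590.3, 114, 5.91, 672, 270.4, 1757, 102, 12.8, 9.02 and 9.58 CPM, against 14.5, 119, 283, 75.6, 3.99, 454, 219.7, 765, 74.0, 10.6, 1.75 and 4.67 CPM in the nearest sample. The Cre heart 1 without succinate had the lowest level of its arm in Atp5a1 and Sucla2, at 3034 and 359 CPM, against 3574 and 413 CPM in the nearest sample. The Cre heart 3 without succinate had the highest level of its arm in Acot2, Angptl4, Chrna2, Ehhadh, Nrip1, Pdk4, Plin2, Slc27a1 and Vldlr, at 189, 166, 8.72, 22.1, 21.8, 3876, 141, 239.9 and 445 CPM, against 90.4, 61.9, 5.33, 13.3, 16.8, 1584, 97.9, 177 and 336 CPM in the nearest sample. The Cre heart 3 without succinate had the lowest level of its arm in Ccnd1, at 57.7 CPM, against 79.6 CPM in the nearest sample. The Cre heart 3 with succinate had the highest level of its arm in Aacs, Ass1, Comp, Cry1, Dkk3, S100a8 and Scd2, at 4.99, 4.29, 6.68, 12.5, 9.35, 0.919 and 21.1 CPM, against 3.96, 2.62, 3.66, 8.21, 4.15, 0.574 and 15.7 CPM in the nearest sample. The floxed heart 2 without succinate had the highest level of its arm in Nos2, Pfkfb1, Pgm1, Ppm1k and Thra, at 24.2, 7.54, 241, 49.7 and 147 CPM, against 15.8, 4.09, 216, 40.1 and 116 CPM in the nearest sample. The floxed heart 2 without succinate had the lowest level of its arm in Asns, at 1.77 CPM, against 3.51 CPM in the nearest sample. The floxed heart 3 with succinate had the highest level of its arm in Klhl31, Lpl, Pdk4, Sesn1 and Trim63, at 125, 4515, 5185, 208 and 351 CPM, against 101, 4084, 3871, 167 and 256 CPM in the nearest sample. The floxed heart 2 with succinate had the highest level of its arm in Bhlhe40, Eeig1 and Naprt, at 39.0, 19.6 and 16.8 CPM, against 30.6, 14.3 and 14.3 CPM in the nearest sample. The Cre heart 2 without succinate had the highest level of its arm in Alas2 and Slc4a1, at 20.6 and 0.698 CPM, against 9.49 and 0.0987 CPM in the nearest sample. The Cre heart 2 with succinate had the highest level of its arm in Tnfrsf12a, at 75.6 CPM, against 49.7 CPM in the nearest sample. The Cre heart 4 with succinate had the highest level of its arm in Lck, at 0.836 CPM, against 0.453 CPM in the nearest sample. The Cre heart 4 without succinate had the highest level of its arm in Ager, at 0.658 CPM, against 0.349 CPM in the nearest sample. The floxed heart 4 with succinate had the highest level of its arm in Arrdc2, at 52.3 CPM, against 27.2 CPM in the nearest sample. The floxed heart 3 without succinate had the highest level of its arm in Lyve1, at 43.0 CPM, against 26.8 CPM in the nearest sample.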

How the results depend on the processing

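The 2774 genes of the common effect became 2403 to 3280 under DESeq2, limma voom, the FPKM scales, RLE factors, removal of mitochondrial genes, a stricter filter, 4 group means and no genotype term or with the replicate number as a block, 2262 with no filter, and 2042 to 3064 with 1 library left out, where 1735 of the calls were kept in all 16 fits. They became 1341 with the atrial marker score as a covariate, 437 against a fold of 1.2, 13 with the macrophage score as a covariate and 1788 with floxed untreated 4 and Cre untreated 1 both left out, the last pair of settings chosen after seeing the data. Of the calls 10 were kept with the macrophage score, and 2702 had the same sign. The share of calls that were higher was 43.7% on log2(FPKM + 0.1) and 41.6% with a mean FPKM of at least 1. The 72 genes called in each genotype became 276 with DESeq2, 44 on log2(FPKM + 0.1), 37 with the atrial score, 0 with the macrophage score (536 before adjustment, 0 being edgeR's count), 16 without the 2 libraries, 2774 if only the sign is asked of each genotype, and 13 to 81 with 1 library left out. The difference between genotypes, 0 in edgeR, was called for 4 genes by DESeq2 and for 7 without the 2 libraries. With the macrophage score the estimates of C1qa, C1qb, C1qc, Csf1r and Scd1 turned to 0.13, 0.094, 0.071, 0.0036 and 0.091, none of which passed (adjusted p from 0.808 to 0.993). All of these but Scd1 are among the 14 markers that make up the score, so that fit itself draws their estimates toward 0. The Sucnr1 difference ran from -0.0095 to 0.0995 CPM with 1 library left out (exact p from 0.142 to 0.969). Except as stated, the cause was not tested.

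Replicate numbers are shared by the groups, but did not mark samples that vary together: 2 of 8 samples correlated best with their own number. With the replicate block within genotype 2684 genes passed for the common effect, and 28 passed in each genotype, 23 of them among the 72, with fewer residual degrees of freedom. With the block across all groups 2811 passed. Depth limits the 62 listed genes below the filter, Sucnr1 among them.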
